A study of Mus musculus with 24 samples.

Results

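The TRIM genes encode tripartite motif proteins, and their RNA levels were compared across MIN6 cells with altered miR-146a-5p activity, with or without proinflammatory cytokines. Members were all genes of the count table whose symbol is Trim followed by a digit, 52 of the 17696 listed genes. Of these, 35 had a mean of at least 1 CPM (counts per 1000000 assigned reads) over all 24 libraries and enter the summary counts, and 17 lay below it. The same limit left 12675 genes of the whole table as the background. Trim34a and Trim66 reached the limit through their cytokine-treated libraries. For Trim34a these were the treated overexpression libraries, at a mean of 10.8 CPM beside at most 2.00 CPM in any other group.

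Most TRIM proteins carry a RING domain, a B-box and a coiled coil, and act as E3 ubiquitin ligases. Many are induced by interferons, and some of these restrict viruses or ubiquitinate proteins of the RIG-I, cGAS and NF-κB signaling routes. Other members act on chromatin, microtubules or muscle proteins.

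MIN6 is a mouse insulinoma line used as a β cell model. Stable lines carried a lentiviral vector with a scrambled sequence (Scr), with an inhibitor of miR-146a-5p (ZIP), or with miR-146a-5p for overexpression (OE). Each line was left untreated or received 3 cytokines together for 24 h, TNFα at 10 ng/ml, IL-1β at 5 ng/ml and IFNγ at 100 ng/ml (Scr+Cy, ZIP+Cy, OE+Cy), with 4 libraries in each of the 6 groups. Each line was selected with puromycin and expanded from a single picked clone, so vector and clone cannot be told apart, and the OE vector had another backbone and fluorescent reporter than the Scr and ZIP vectors. The labels do not say that replicates were separate cultures, so p-values measure only the spread between these libraries. In bulk RNA, fewer cells with a transcript and less of it per cell cannot be told apart. The mature miR-146a-5p was not analysed here.

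The libraries held 26657792 to 37168232 assigned reads (median 30701023). All 8 β cell markers were listed, and their summed level ran from 23000 to 30200 CPM in Scr and up to 50500 CPM in OE. Ins1, Ins2 and Iapp read higher in OE than in Scr without overlap, and Pdx1, Nkx6-1, Nkx2-2 and Mafa read lower without overlap. The median log2 fold change of OE over Scr across the 8 markers was -0.05. Of 6 leukocyte markers 3 were listed, with a sum of 0.62 to 4.43 CPM, and Ptprc stayed at or below 0.422 CPM. The 3 fibroblast markers summed to 0.126 to 28.3 CPM, and the highest sum in each of Scr, Scr+Cy and ZIP was that of replicate 1. Of 3 endothelial markers only Pecam1 was listed, at 0.0619 to 0.115 CPM in Scr and 0.585 to 0.751 in Scr+Cy, 0.101 to 0.22 in ZIP and 0.559 to 1.76 in ZIP+Cy, and 0.655 to 1.39 in OE and 1.61 to 3.93 in OE+Cy. The 4 markers of other islet cells summed to 246 to 369 CPM in Scr and 134 to 190 in Scr+Cy, to 101 to 305 in ZIP and 78.4 to 218 in ZIP+Cy, and to 46 to 56 in OE and 9.09 to 34.7 in OE+Cy. Most of each sum was Gcg, and Ppy was at 6.04 to 10.9 CPM in OE and 2.27 to 5.71 in OE+Cy beside at most 0.0349 in the other groups. The part of these markers in the results was not tested.

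Promoter sequences were matched to 40 of the 52 members in RefSeq (GRCm38.p6, the assembly of mm10), as windows of 300 bases, 250 before and 50 after each start. The core of the interferon-stimulated response element, searched as GAAANNGAAA on both strands with overlaps allowed, lay in 8 of these 40 members (20%) and in 510 of 13884 listed genes with a window (3.67%). The 8 were Trim2, Trim21, Trim26, Trim34a, Trim5, Trim12a, Trim12c and Trim30a. Trim34a, Trim5, Trim12a, Trim12c and Trim30a are related copies in the chromosome 7 cluster described below, and were counted separately. Along the gene's own strand alone the core lay in 1 member (Trim21) and in 1.82% of genes. Cytokines raised 7 members in all 3 lines, and of the 6 with a window it lay in 3 (Trim21, Trim26 and Trim34a) and not in Trim25, Trim56 or Trim66. Trim14 is named only. The interferon-gamma-activated site, searched as TTCNNNGAA, which reads the same on both strands, lay in 6 of 40 members (15.0%), in 8.36% of genes and in 0 of those 6. The windows below belong to the 3 raised members with the element and to Trim12c and Trim5, neighbors whose levels moved in opposite directions in Scr cells. Each is written 5′ to 3′ along its gene, with the element in capitals, as its reverse complement where it lies on the other strand.
Trim21, chr7:102565433-102565732, minus strand: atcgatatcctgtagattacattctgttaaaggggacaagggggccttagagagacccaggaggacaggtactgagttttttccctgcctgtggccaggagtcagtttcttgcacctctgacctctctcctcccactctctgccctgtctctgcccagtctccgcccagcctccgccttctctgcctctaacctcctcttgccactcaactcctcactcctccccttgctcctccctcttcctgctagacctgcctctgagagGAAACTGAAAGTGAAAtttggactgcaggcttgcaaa
Trim26, chr17:36836896-36837195, plus strand: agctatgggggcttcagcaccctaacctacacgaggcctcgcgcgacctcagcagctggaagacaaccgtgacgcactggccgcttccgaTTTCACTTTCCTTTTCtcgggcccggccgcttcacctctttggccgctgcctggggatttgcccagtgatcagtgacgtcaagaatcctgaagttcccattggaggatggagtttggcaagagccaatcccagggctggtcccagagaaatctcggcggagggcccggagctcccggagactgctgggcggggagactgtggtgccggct
Trim34a, chr7:104244207-104244506, plus strand: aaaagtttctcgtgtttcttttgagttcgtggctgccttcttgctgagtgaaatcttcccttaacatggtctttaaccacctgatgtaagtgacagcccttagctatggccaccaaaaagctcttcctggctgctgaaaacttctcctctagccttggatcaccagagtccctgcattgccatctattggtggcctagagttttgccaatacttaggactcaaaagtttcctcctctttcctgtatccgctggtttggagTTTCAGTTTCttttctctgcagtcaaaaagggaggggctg
Trim12c, chr7:104353300-104353599, minus strand: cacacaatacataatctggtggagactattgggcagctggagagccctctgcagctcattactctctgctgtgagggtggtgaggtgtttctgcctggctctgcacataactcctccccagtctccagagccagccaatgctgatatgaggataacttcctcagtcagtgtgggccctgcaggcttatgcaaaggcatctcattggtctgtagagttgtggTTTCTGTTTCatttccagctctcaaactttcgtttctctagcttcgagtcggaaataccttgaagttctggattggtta
Trim5, chr7:104288057-104288356, minus strand: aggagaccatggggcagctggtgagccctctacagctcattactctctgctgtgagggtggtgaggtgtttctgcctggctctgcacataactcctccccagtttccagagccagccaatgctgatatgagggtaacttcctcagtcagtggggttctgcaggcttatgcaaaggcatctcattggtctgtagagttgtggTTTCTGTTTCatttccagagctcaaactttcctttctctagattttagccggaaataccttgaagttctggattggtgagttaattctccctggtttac
In Trim21, 2 overlapping matches began 13 and 19 bases after the start. In Trim26, 2 overlapping matches began 160 and 154 bases before it, and in Trim34a 1 match began 10 bases after it. The window of Trim5 shared an identical run of 241 bases with that of Trim12a and of 71 bases with that of Trim12c. A match describes the letters of the window only.

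Per length of RNA (mean CPM per kb of exon over all libraries), the most abundant members were Trim44 (70.0), Trim35 (60.01), Trim28 (53.5), Trim59 (29.6), Trim37 (27.3) and Trim25 (25.3). Trim28, also called KAP1, is a corepressor recruited by KRAB zinc finger proteins, and Trim37 is a ligase of centrosomes and peroxisomes. Trim44 stood at 421 ± 14.5 CPM (SD, n = 4 as in every group) in Scr and 419 ± 3.74 in Scr+Cy, and at 312 ± 8.22 in OE and 339 ± 25.1 in OE+Cy. Trim28 ran from 233 to 255 CPM in Scr and from 240.3 to 248 CPM in Scr+Cy, so those groups overlapped. Calls needed a 1.5-fold change or more together with a Benjamini-Hochberg adjusted p under 0.05 in edgeR's quasi-likelihood test over all listed genes. For differences in response only the adjusted p was used. Of the 35 members, 16 were called in no comparison of 2 groups, and the share of all genes called in none was not counted.

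**Figure D1:**
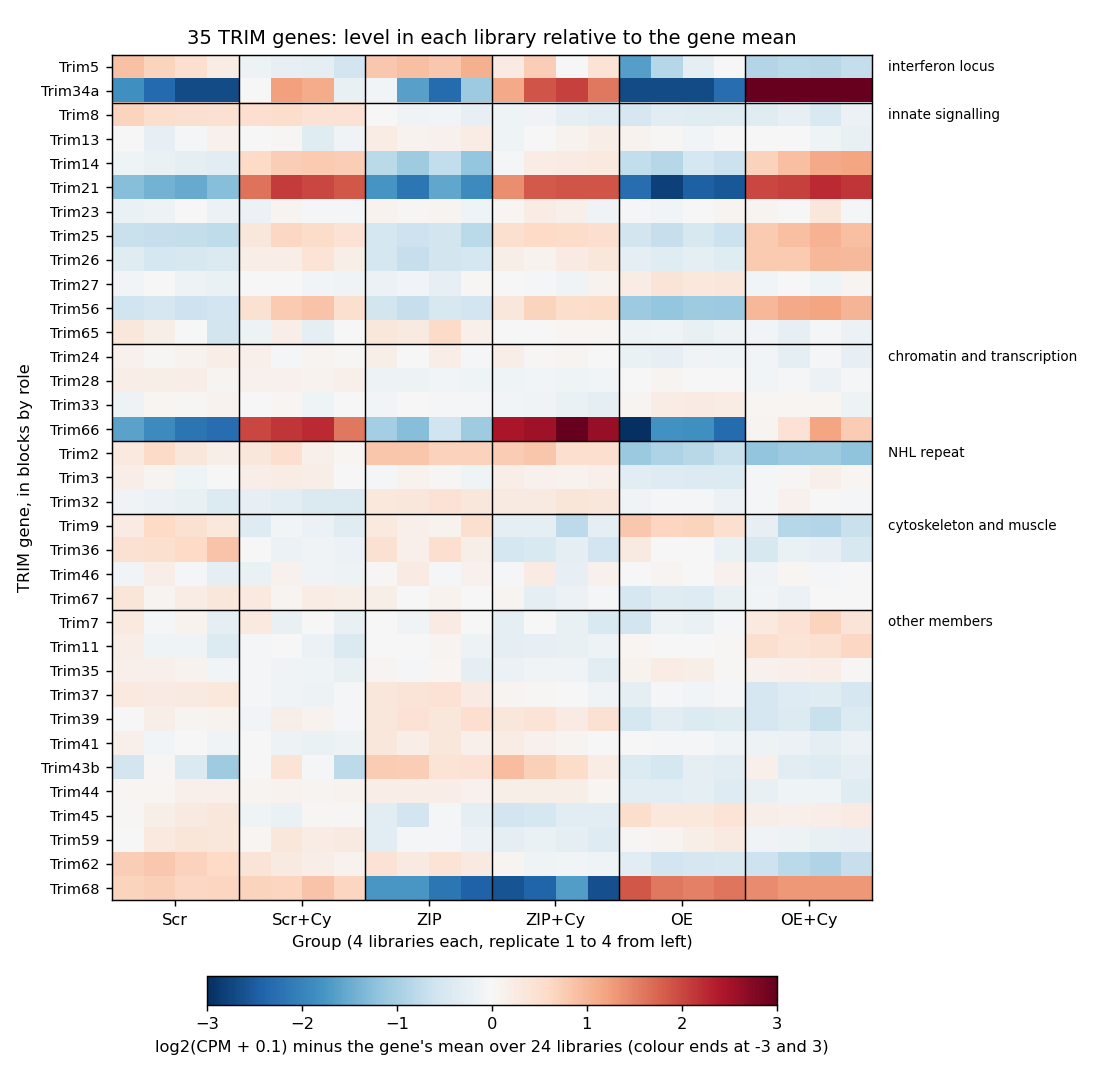
Level of the 35 TRIM genes with a mean of at least 1 CPM (rows) in each of the 24 libraries (columns, 4 per group), as log2(CPM + 0.1) minus the gene's mean over the libraries; red is above and blue below that mean. Trim21, Trim34a and Trim66 were higher in the cytokine-treated than in the untreated group of each of the 3 lines, whereas Trim68 was low in both ZIP groups and high in both OE groups.

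Cytokines raised Trim34a, Trim21, Trim66, Trim56, Trim25, Trim14 and Trim26 in every line. In Scr cells 7 of 35 members were called higher, where the share of all genes at this level called higher was 6.07%, and 3 were called lower (background 1.81%). In ZIP cells 7 were higher (background 6.57%) and 2 lower (background 3.87%). In OE cells 8 were higher (background 10.9%) and 1 lower (background 8.95%). The higher calls of each line include Trim34a and Trim66. These entered the 35 through the treated libraries that are compared here, so their part in the counts was favored in advance. The median log2 fold change over the 35 members was -0.04 in Scr, -0.10 in ZIP and 0.00 in OE cells, beside -0.01 over all genes in each line. By role, 5 of 10 members linked to innate signaling rose in each line. Of 4 chromatin regulators 1 rose (Trim66), and of 3 members with NHL repeats 0 rose or fell. Of 4 members linked to the cytoskeleton or muscle 0 rose in any line, 2 fell in Scr and ZIP and 1 in OE cells.

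Trim21, a cytosolic antibody receptor and E3 ligase, read 6.42, 5.84, 5.44 and 6.50 CPM in the Scr libraries and 49.3, 68.5, 64.0 and 57.5 CPM in Scr+Cy. It read 4.54, 3.46, 5.27 and 4.13 CPM in ZIP and 41.9, 56.6, 58.8 and 58.4 CPM in ZIP+Cy. In OE cells it went from 3.14, 2.18, 2.81 and 2.62 CPM to 63.4, 65.4, 74.6 and 70.6 CPM. Treated and untreated libraries did not overlap in any line. The log2 fold change was 3.30 ± 0.13 (SE) in Scr (9.87-fold, adjusted p = 8.1e-16, edgeR), 3.63 ± 0.13 in ZIP (12.3-fold, adjusted p = 3.6e-16) and 4.67 ± 0.14 in OE cells (25.5-fold, adjusted p = 4.4e-18).

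Trim25 and Trim56 are ligases linked to RIG-I and to cGAS and STING signaling, respectively. Trim25 was already abundant and rose from 80.0 ± 2.32 to 184 ± 15.3 CPM in Scr, from 85.2 ± 7.36 to 189 ± 7.80 in ZIP and from 86.9 ± 5.81 to 246 ± 16.8 in OE cells. Its log2 fold changes were 1.2 ± 0.07, 1.15 ± 0.07 and 1.5 ± 0.07. For both genes, treated libraries lay above untreated ones without overlap in all 3 lines. For Trim56 the Scr libraries read 27.7, 29.5, 27.5 and 28.3 CPM and the Scr+Cy libraries 57.5, 72.9, 76.6 and 58.8 CPM. In OE cells it started lower, at 19.7, 18.7, 20.2 and 19.7 CPM, and ended higher, at 83.8, 93.1, 95.5 and 85.1 CPM. The log2 fold change of Trim56 was 1.23 ± 0.08 in Scr (adjusted p = 2.2e-11, edgeR), 1.10 ± 0.08 in ZIP (1.9e-10) and 2.19 ± 0.08 in OE cells (4.1e-16).

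Trim14, an adaptor tied to MAVS and cGAS signaling, and Trim26, a ligase encoded in the major histocompatibility region, also rose. Trim14 rose from 12.5 ± 0.814 to 24.2 ± 1.27 CPM in Scr, from 7.70 ± 1.06 to 16.8 ± 1.80 in ZIP and from 9.11 ± 0.879 to 29.4 ± 4.50 in OE cells. Exons of Trim14 overlap those of Nans on the other strand, and whether the counting used strand is not given in the sources used here. Trim26 rose from 32.5 ± 1.60 to 52.6 ± 3.94 CPM in Scr, from 29.8 ± 1.66 to 51.5 ± 3.79 in ZIP and from 35.3 ± 0.822 to 82.1 ± 6.38 in OE cells. The log2 fold changes in Scr, ZIP and OE cells were 0.96 ± 0.10, 1.12 ± 0.11 and 1.69 ± 0.11 for Trim14 and 0.69 ± 0.06, 0.79 ± 0.07 and 1.22 ± 0.06 for Trim26. No treated library of either gene overlapped an untreated one of its line.

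**Figure D2:**
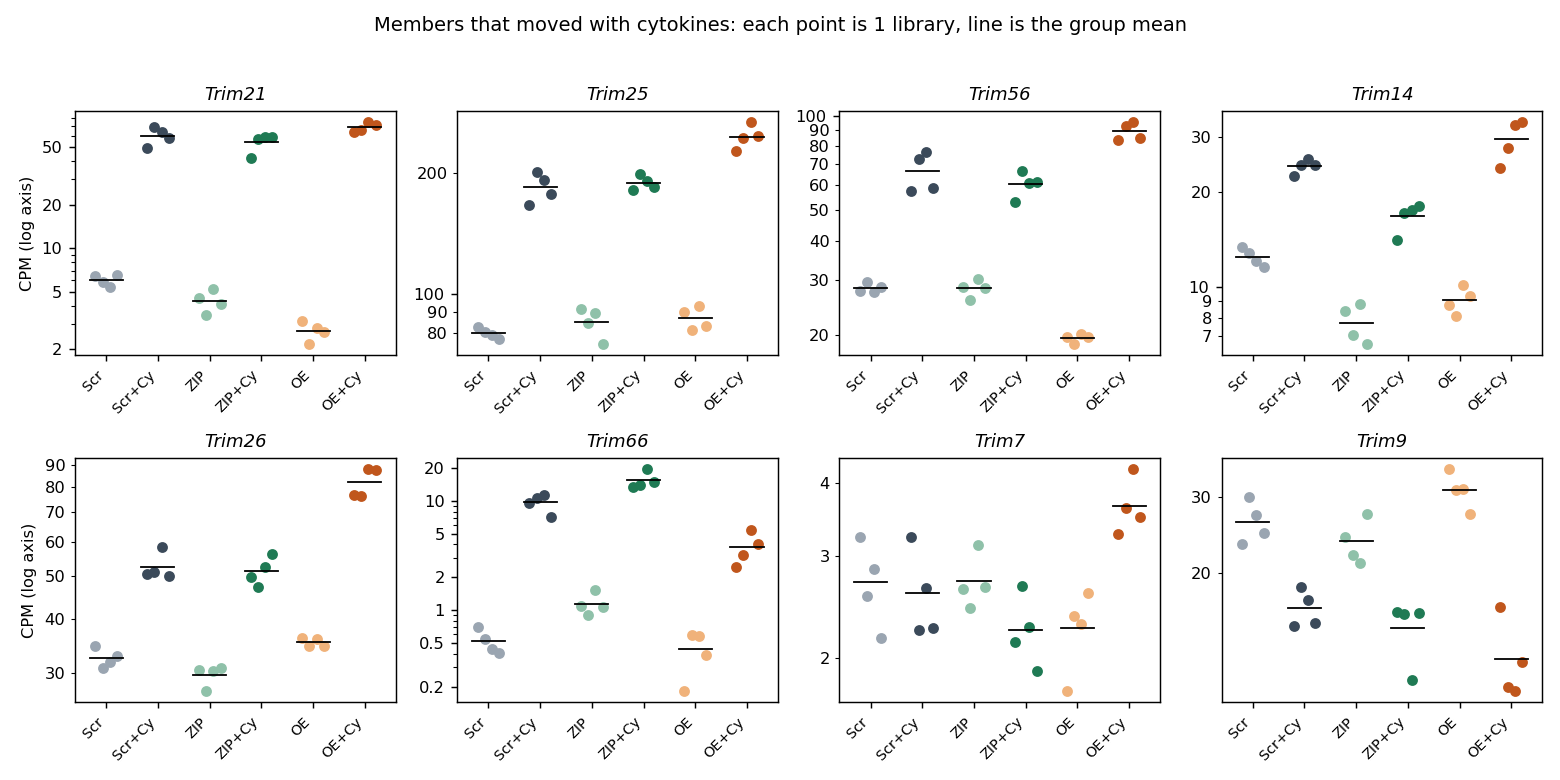
CPM (log axis) of 8 TRIM genes by group, with 1 point per library and a line at the mean of the 4 libraries. Trim21, Trim25, Trim56, Trim14, Trim26 and Trim66 were higher in all treated libraries of each line, Trim7 was called higher only in OE cells, and Trim9 was lower in the treated libraries of each line.

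Trim66 is a relative of the transcriptional regulators Trim24, Trim28 and Trim33. It read 0.701, 0.546, 0.438 and 0.403 CPM in Scr and 9.64, 10.7, 11.5 and 7.21 CPM in Scr+Cy. In ZIP cells it went from 1.10, 0.912, 1.52 and 1.08 CPM to 13.3, 14.1, 19.6 and 14.9 CPM. In OE cells it went from 0.181, 0.599, 0.579 and 0.393 CPM to 2.47, 3.18, 5.46 and 4.01 CPM. The 3 treated groups did not overlap each other, with OE+Cy lowest and ZIP+Cy highest. The log2 fold change was 4.20 ± 0.27 in Scr (18.4-fold, adjusted p = 1.1e-11, edgeR), 3.74 ± 0.25 in ZIP (13.3-fold, 1.9e-11) and 3.08 ± 0.28 in OE cells (8.47-fold, 4.0e-09). With cytokines, Trim66 was 2.57-fold lower in OE than in Scr cells (log2 -1.36 ± 0.22, adjusted p = 1.1e-05, edgeR) and 1.59-fold higher in ZIP than in Scr cells (0.67 ± 0.21, 0.017). The ZIP difference passed below the 1.5-fold limit without replicate 4 of Scr+Cy (log2 0.55) or replicate 3 of ZIP+Cy (0.54).

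A cluster on chromosome 7 (chr7:104244457-104465194, mm10, 221 kb) held 6 members: Trim34a, Trim5, Trim12a, Trim12c, Trim30c and Trim30a. These genes are related copies, so reads can be split between them and each level is uncertain. Trim34a had at most 3 reads in a Scr library and at most 1 in an OE library. With cytokines it read 0.554, 1.41, 1.30 and 0.451 CPM in Scr, 1.33, 2.28, 2.57 and 1.84 CPM in ZIP and 8.62, 9.45, 12.9 and 12.4 CPM in OE cells. The OE+Cy libraries lay above all others. Against a floor of 3 reads per library, Trim34a was at least 10.5-fold higher in Scr+Cy than in Scr and at least 123-fold higher in OE+Cy than in OE. In ZIP cells, with up to 14 reads in an untreated library, the log2 fold change was 3.24 ± 0.47 (adjusted p = 1.1e-05, edgeR), and 4.11 without replicate 1 of ZIP, which held those 14 reads.

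Trim12c and Trim12a had means below 1 CPM and were called higher with cytokines in all 3 lines. Trim12c was at 0 reads in all Scr and OE libraries and reached 0.207 to 1.17 CPM in Scr+Cy and 3.56 to 4.77 CPM in OE+Cy, at least 5.71-fold and 46.4-fold higher. Without replicate 1 of Scr+Cy, which read 1.17 CPM and had the highest fibroblast marker sum of its group, the first bound was 3.20-fold. Trim12a reached 0.0601 to 0.343 CPM in Scr+Cy and 1.22 to 2.15 CPM in OE+Cy, at least 2.28-fold and 18.5-fold above the untreated groups. Its bound in Scr cells was 1.87-fold without replicate 2 of Scr+Cy and 1.74-fold without replicate 3. Trim30a passed 3 reads in a library only in ZIP+Cy and OE+Cy, at up to 0.745 CPM. Trim5, a relative of the human retroviral restriction factor, went the other way in Scr cells, from 4.45, 3.85, 3.44 and 2.82 CPM to 2.12, 2.00, 1.96 and 1.56 CPM, with no overlap. Its log2 fold change was -0.93 ± 0.23 in Scr (adjusted p = 0.0058, edgeR), and did not pass in ZIP (-0.53 ± 0.23, 0.086) or OE cells (-0.24 ± 0.25, 0.46). The response of Trim5 was not called different from that of Scr in either line (adjusted p = 0.90 for ZIP and 0.17 for OE, edgeR).

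**Figure D3:**
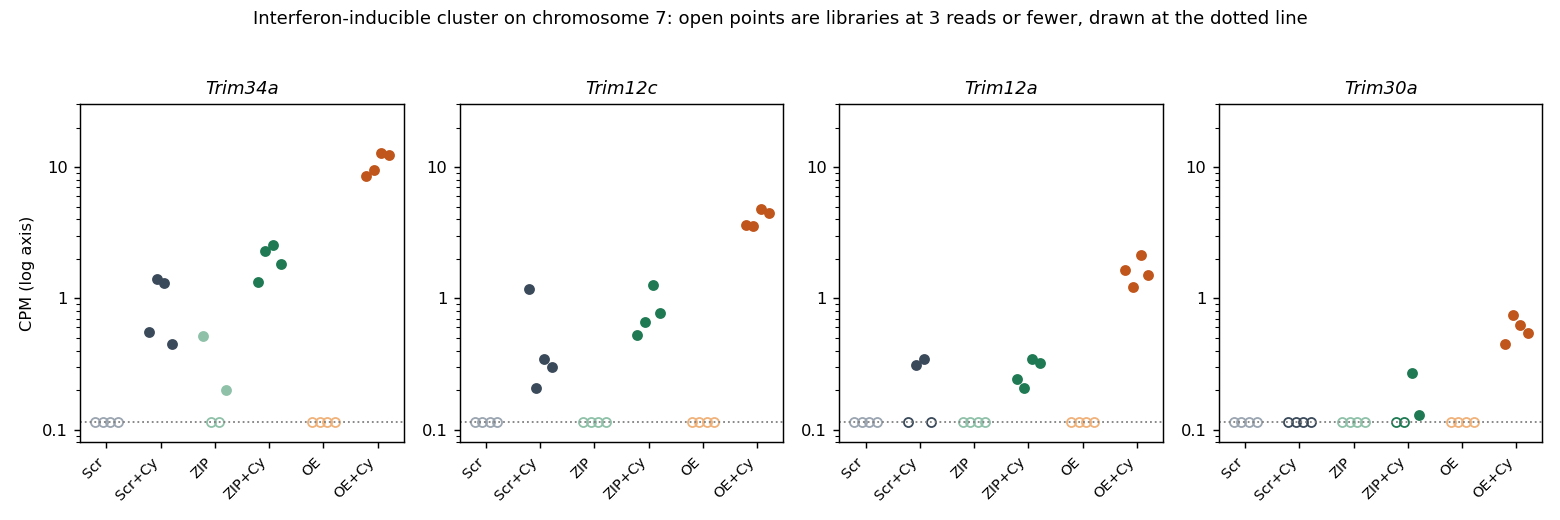
CPM (log axis) of 4 genes of the chromosome 7 cluster by group, with 1 point per library; open points are libraries with 3 reads or fewer, drawn at the dotted line. Untreated Scr and OE libraries had 3 reads or fewer for all 4 genes, and the OE+Cy libraries were the highest, between 8.62 and 12.9 CPM for Trim34a.

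Fewer members fell with cytokines. Trim9, a neuronal ligase that binds SNAP25, was called lower in all 3 lines. It went from 23.4, 30.0, 27.2 and 24.8 CPM to 15.2, 18.6, 17.4 and 15.4 CPM in Scr, and from 34.8, 31.1, 31.3 and 27.4 CPM to 16.7, 10.9, 10.7 and 12.5 CPM in OE cells. Treated and untreated libraries did not overlap. The log2 fold change was -0.66 ± 0.13 in Scr (adjusted p = 5.2e-04, edgeR), -0.66 ± 0.13 in ZIP (4.8e-04) and -1.29 ± 0.13 in OE cells (1.9e-08). In ZIP cells it passed inside the 1.5-fold limit without replicate 3 of ZIP+Cy (-0.55) or replicate 4 of ZIP (-0.58). Trim36, a microtubule-associated ligase, fell from 4.13 ± 0.556 to 2.46 ± 0.138 CPM in Scr and from 3.39 ± 0.444 to 1.93 ± 0.185 CPM in ZIP cells (log2 -0.75 ± 0.13 and -0.82 ± 0.14). In OE cells it stood at 2.73 ± 0.390 CPM untreated and 2.08 ± 0.228 CPM treated and was not called (log2 -0.40 ± 0.14). Trim7, a ligase that binds glycogenin, was called higher in OE cells, from 2.25 ± 0.354 to 3.65 ± 0.413 CPM (log2 0.70 ± 0.16, adjusted p = 7.8e-04, edgeR).

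**Figure D4:**
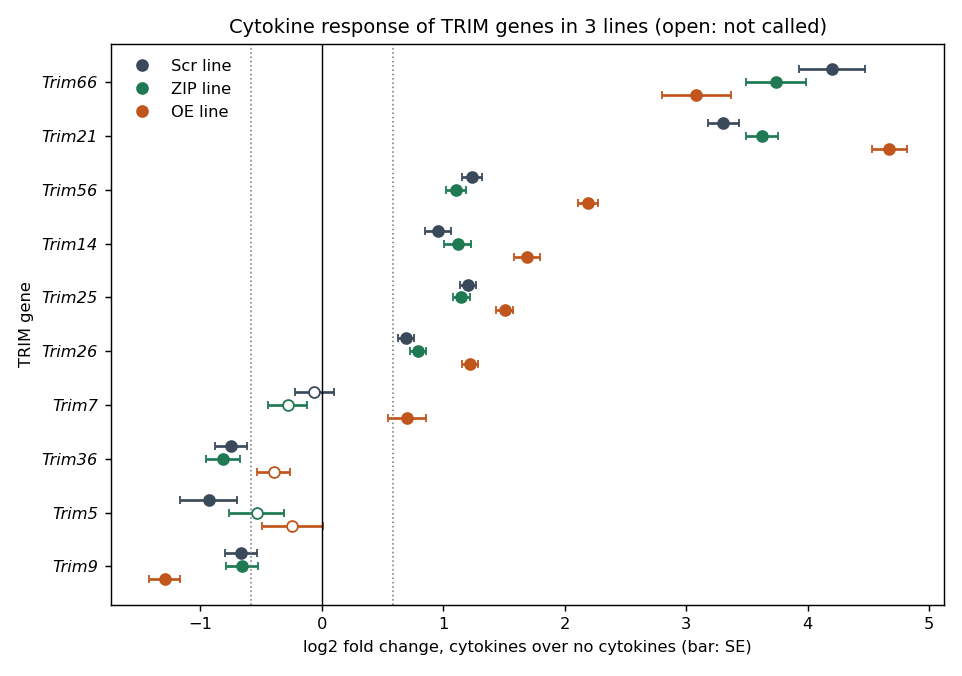
log2 fold change of treated over untreated libraries (points, with bars of 1 SE) for 10 TRIM genes in the Scr, ZIP and OE lines; open points were not called, and dotted lines mark a 1.5-fold change. Among the genes shown, Trim21, Trim56, Trim14, Trim25 and Trim26 had their largest values in OE cells (4.67, 2.19, 1.69, 1.5 and 1.22), and Trim9 its lowest there (-1.29).

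The test of the difference in response, the log2 response of OE minus that of Scr, called 11 of 35 members higher (background 12.6%) and 2 lower (background 14.1%). The 11 include Trim34a, which entered the 35 through its OE+Cy libraries, so its part in this count was favored in advance. The difference was 0.96 ± 0.12 for Trim56 (adjusted p = 6.1e-06, edgeR), 1.37 ± 0.19 for Trim21 (2.4e-05), 0.52 ± 0.09 for Trim26 (2.6e-04) and 0.73 ± 0.15 for Trim14 (0.0011). It was 0.76 ± 0.22 for Trim7 and 0.52 ± 0.14 for Trim11, and it was -0.40 ± 0.09 for Trim27 and -0.63 ± 0.18 for Trim9. Trim34a, Trim67, Trim3, Trim25 and Trim32 were the other calls, all higher. Over 29 alternatives these calls were lost in 16 for Trim32 (0.19 to 0.26 on the log2 scale), in 13 for Trim34a, in 5 for Trim25 and in 4 for Trim3, mostly when 1 library was left out. The call of Trim67 was lost without replicate 3 or 4 of OE+Cy, and that of Trim7 without replicate 3 of OE+Cy. With the replicate number as a block, 15 members passed: Trim34a was lost (adjusted p = 0.065, edgeR), and Trim66 (-1.11 ± 0.36, 0.029), Trim59 (-0.30 ± 0.09, 0.024) and Trim35 (0.20 ± 0.06, 0.022) were gained. Without the block, Trim66 differed by -1.12 ± 0.42 (adjusted p = 0.064, edgeR). Without replicate 3 of OE+Cy, 8 members passed. In the same test 6 of 8 β cell markers were lower, and their part in these differences was not tested.

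The OE and Scr lines differed at different ends of the response. For Trim21 the treated levels were not called different (63.4 to 74.6 CPM in OE+Cy, 49.3 to 68.5 CPM in Scr+Cy, adjusted p = 0.14, edgeR), and the untreated level was 2.25-fold lower in OE (log2 -1.17 ± 0.15, 4.9e-07). For Trim26 the untreated difference was 0.12 ± 0.06 (adjusted p = 0.13, edgeR) and the treated level was 1.56-fold higher in OE (0.64 ± 0.06, 7.1e-09). For Trim25 the treated difference was 0.42 ± 0.07 (adjusted p = 8.9e-06, edgeR), under the fold limit, and the untreated one 0.12 ± 0.07. For Trim56 the difference was -0.53 ± 0.08 untreated and 0.43 ± 0.08 treated. Trim27, a ligase of endosomal sorting, stood at 70.2 ± 3.20 CPM in OE and 52.4 ± 3.33 CPM in Scr, and at 55.5 ± 3.49 and 54.8 ± 2.16 CPM with cytokines.

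No member was called different between ZIP and Scr in its cytokine response. The count was 0 of 35 by edgeR (backgrounds 0.0710% higher and 0.00789% lower), 0 at an unadjusted p under 0.05 and 0 by DESeq2, and the smallest adjusted p over the 35 was 0.839. These differences ran from -1.55 (Trim34a) to 0.40 (Trim5) on the log2 scale.

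Between untreated lines, Trim68, known as a coregulator of the androgen receptor, separated all 3. It read 2.16, 2.24, 2.09 and 2.14 CPM in Scr, 0.329, 0.328, 0.217 and 0.168 CPM in ZIP and 5.14, 4.22, 3.97 and 4.29 CPM in OE, with no overlap between lines. It was 8.25-fold lower in ZIP (log2 -3.05 ± 0.21, adjusted p = 5.2e-11, edgeR) and 2.04-fold higher in OE (1.03 ± 0.16, 7.7e-06), both against the same Scr libraries. Trim68 lies at chr7:102677579-102687328 (mm10), near Trim21 at chr7:102557920-102565483, and was not called with cytokines in any line. With cytokines it stood at 2.24 ± 0.179 CPM in the Scr line, 0.197 ± 0.101 in the ZIP line and 3.51 ± 0.138 in the OE line. In the OE line the treated libraries, at 3.43 to 3.72 CPM, lay below the untreated ones without overlap (log2 -0.33 ± 0.16, adjusted p = 0.094, edgeR).

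In ZIP against Scr cells, 3 members were higher (background 6.60%) and 3 lower (background 6.27%). Beside Trim68, the lower ones were Trim14 (log2 -0.69 ± 0.11) and Trim8, a ligase of TNF and IL-1 signaling, at 52.1 ± 3.99 against 81.3 ± 5.69 CPM (-0.64 ± 0.07). The higher ones were Trim34a, Trim66 and Trim43b. Trim66 stood at 1.15 ± 0.259 against 0.522 ± 0.134 CPM (log2 1.13 ± 0.31, adjusted p = 0.0075, edgeR). Trim43b, which has close copies that can share its reads, read 4.65, 4.60, 3.60 and 3.70 CPM in ZIP and 1.81, 2.79, 1.97 and 1.24 CPM in Scr (1.08 ± 0.23, adjusted p = 7.0e-04, edgeR). Trim34a was at least 2.41-fold higher but overlapped the Scr libraries. The bound was 1.29-fold without replicate 1 of ZIP, the library of highest fibroblast marker sum in its group. Trim34a was not called without replicate 1 of ZIP, without replicate 2, 3 or 4 of Scr, or in a fit of these groups alone.

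In OE against Scr cells, 1 member was higher (Trim68, background 9.49%) and 7 were lower (background 14.3%). Trim2, a neuronal ligase with NHL repeats, read 85.1, 104, 88.5 and 78.7 CPM in Scr and 32.1, 36.6, 39.5 and 43.9 CPM in OE. It was 2.35-fold lower, without overlap (log2 -1.23 ± 0.10, adjusted p = 4.1e-10, edgeR). Trim62, a ligase tied to epithelial polarity, stood at 46.2 ± 2.77 CPM in Scr and 20.3 ± 1.40 in OE (-1.19 ± 0.07), and Trim8 at 81.3 ± 5.69 and 42.8 ± 2.31 CPM (-0.92 ± 0.07). Trim5 read 0.695, 1.28, 1.93 and 2.39 CPM in OE, all below the lowest Scr library at 2.82 CPM (-1.21 ± 0.24, adjusted p = 1.3e-04, edgeR). Trim21 (-1.17 ± 0.15), Trim67 (-0.62 ± 0.08) and Trim36 (-0.60 ± 0.13) were the remaining ones, and Trim36 sat at the fold limit and was not called by DESeq2 (-0.58). The call of Trim36 was lost in 10 of 29 alternatives, and that of Trim67 without replicate 1 of OE (-0.58).

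With cytokines, 5 members were higher in ZIP+Cy than in Scr+Cy (background 6.18%) and 2 lower (background 6.68%). The lower ones were Trim68 (log2 -3.51 ± 0.22) and Trim8 (-0.68 ± 0.07). Of the 5 higher ones, Trim32 (0.67 ± 0.06) stayed called, and Trim34a, Trim43b, Trim5 and Trim66 were all lost without replicate 4 of Scr+Cy, which left 3 calls. Trim34a was also lost without replicate 1 of Scr+Cy or replicate 2 or 3 of ZIP+Cy, Trim43b without replicate 1 of ZIP+Cy, Trim5 without replicate 2 or 4 and Trim66 without replicate 3 of that group. In OE+Cy against Scr+Cy, 4 members were higher (background 11.0%): Trim34a (3.55 ± 0.38), Trim11 (0.65 ± 0.10), Trim68 (0.65 ± 0.16) and Trim26 (0.64 ± 0.06). The 4 lower ones (background 14.9%) were Trim2 (-1.40 ± 0.10), Trim66 (-1.36 ± 0.22), Trim62 (-1.0 ± 0.08) and Trim8 (-0.78 ± 0.07). Trim11 passed below the fold limit without replicate 4 of Scr+Cy (0.57).

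**Figure D5:**
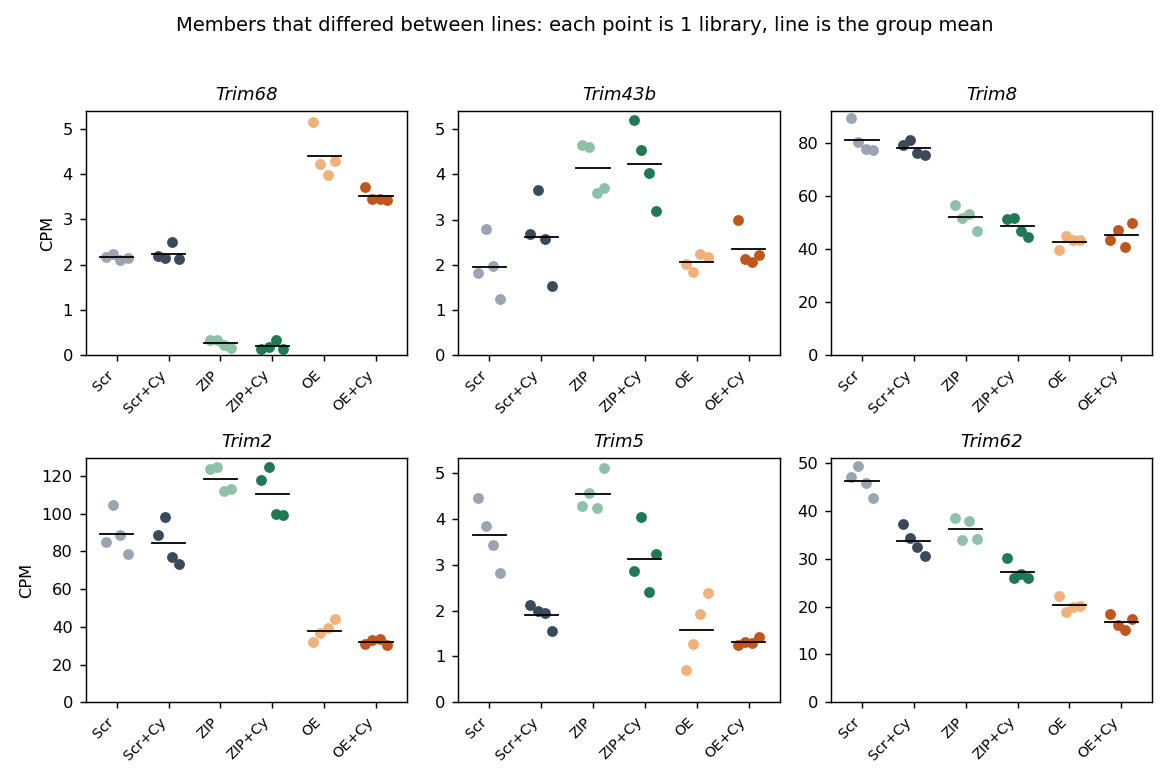
CPM (linear axis) of 6 TRIM genes by group, with 1 point per library and a line at the mean of 4. Trim68 stood at 0.168 to 0.329 CPM in ZIP and 3.97 to 5.14 CPM in OE, Trim2, Trim5 and Trim62 had their lowest means in the OE groups, and Trim8 was lower in the ZIP and OE groups than in the Scr groups.

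Matches to the seed of miR-146a-5p were searched in the longest annotated 3′ UTR of each gene (GENCODE M21). The ZIP vector carries an inhibitor of this miRNA, and the OE vector expresses it. Its mature sequence from RefSeq (chr11:43374435-43374456, minus strand, GRCm38.p6) is shown with the seed, bases 2 to 8, in capitals.
miR-146a-5p: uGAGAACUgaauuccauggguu
A match (AGTTCTC) lay in 8 of 51 members with a 3′ UTR (15.7%) and in 2031 of 15467 genes (13.1%). At 1 CPM or more, 6 of 35 members held one: Trim11, Trim2, Trim25, Trim45, Trim5 and Trim56. Trim2 and Trim5, which were lower in OE than in Scr cells, held the matches shown in capitals, and neither was called in ZIP against Scr (log2 0.41 and 0.32).
Trim2, match from base 47 of the 3′ UTR: aactggaatggAGTTCTCaaggtgggacca
Trim2, match from base 2657 of the 3′ UTR: tttaccaaatgAGTTCTCattttgtacaat
Trim5, match from base 274 of the 3′ UTR: cactgctgcaaAGTTCTCttattctttgcg
The other 4 were not called in OE against Scr, from -0.53 for Trim56 to 0.19 for Trim45 on the log2 scale. This search was chosen after the values had been seen.

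Other members below 1 CPM were also called in comparisons that held a treated group. Trim69 was called higher in all 3 lines. It reached 0.137 to 0.344 CPM in Scr+Cy, 0.0698 to 0.387 CPM in ZIP+Cy and 0.425 to 1.90 CPM in OE+Cy. These levels were at least 2.65-fold, 1.99-fold and 13.8-fold above the untreated groups. Without replicate 4 of ZIP+Cy, the bound in ZIP cells was 1.40-fold. In OE+Cy, Trim31 reached 0.347 to 1.48 CPM, at least 10.7-fold above OE. Trim15 reached 0.347 to 0.695 CPM and Trim47 0.406 to 0.486 CPM there. Exons of Trim47 overlap those of Trim65 on the same strand, so reads can be split between these genes. Trim15 and Trim31 lie beside Trim26 on chromosome 17 and were not called in Scr or ZIP cells. Trim63 was called higher in OE+Cy against OE (at least 1.04-fold) and against Scr+Cy, and Trim71 only against Scr+Cy. The bound of Trim63 against OE was 0.864-fold without replicate 1 of OE+Cy and 0.878-fold without replicate 2, so it did not stay above the floor. Trim63 and Trim71 did not pass 0.193 and 0.243 CPM in any library.

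Of family members under other symbols, Pml, the organizer of nuclear bodies, rose from 46.7 ± 2.31 to 94.4 ± 8.20 CPM in Scr, from 39.5 ± 2.97 to 83.5 ± 7.52 in ZIP and from 45.3 ± 1.74 to 124 ± 10.9 in OE cells. Its response was larger in OE than in Scr cells by 0.43 ± 0.10 (log2, adjusted p = 0.0045, edgeR). Mid1, a microtubule-associated ligase, rose in Scr (log2 0.82 ± 0.07) and OE cells (1.00 ± 0.07), and in ZIP cells its 0.56 ± 0.08 lay under the fold limit. Mid2 was not called with cytokines in any line.

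Among 47 pathway genes around the family at 1 CPM or more, 22 were called higher and 0 lower with cytokines in Scr (backgrounds 6.07% and 1.81%), 23 and 0 in ZIP (6.57% and 3.87%), and 23 and 1 in OE cells (10.9% and 8.95%). Of the transcription factors, 7 of 9 rose in Scr and ZIP and 8 of 9 in OE cells. Of the sensors and adaptors, 7 of 8 rose in Scr, 8 of 8 in ZIP and 7 of 8 in OE cells. Of the E1, E2 and ubiquitin-like partners 4 of 10 rose in each line, among them Isg15, a ubiquitin-like modifier, which went from 0.487 ± 0.0819 to 54.4 ± 14.1 CPM in Scr and from 0.157 ± 0.0706 to 124 ± 20.3 CPM in OE cells. Of the kinases 2 of 11 rose in each line, of the nuclear body partners of Pml 2 of 4, and of the partners of Trim28 0 of 5, of which 1 fell in OE cells. Between lines, 0 of the 47 were called in ZIP against Scr by edgeR (backgrounds 6.60% and 6.27%), 1 was by DESeq2, and 11 had an unadjusted p under 0.05 in edgeR. In OE against Scr 4 were higher and 4 lower (9.49% and 14.3%). With cytokines, 1 was higher and 1 lower in ZIP+Cy against Scr+Cy (6.18% and 6.68%), and 10 were higher and 0 lower in OE+Cy against Scr+Cy (11.0% and 14.9%). The OE response minus the Scr response was called higher for 14 and lower for 7 (12.6% and 14.1%), and the ZIP response minus the Scr response for 0 by edgeR and by DESeq2, with 3 at an unadjusted p under 0.05 in edgeR.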

How the data were processed

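RNA from MIN6 lines was sequenced as mRNA libraries (KAPA mRNA Hyper Prep), 4 in each of 6 groups assigned from the sample labels. The authors deposited estimated counts per gene, not normalized, after alignment to mm10 with STAR and assignment to RefSeq transcripts in Partek, and removed genes with few reads. The submitters' processing notes give STAR 2.7.8a and Partek 11.0.24.0204, and also name FastQC and DESeq2. The quantification method and the use of strand are not given in the sources used here. A second deposited table, scaled by the authors, was not used. Of the estimated counts, 30.3% were not whole and were rounded, and the depth was 26657792 to 37168232 assigned reads per library.

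All 17696 genes of the 24 libraries were fitted together as 6 group means with edgeR 4.0.16 (R 4.3.3, limma 3.58.1; TMM scaling, quasi-likelihood test, Benjamini-Hochberg adjustment over all genes). CPM values are TMM-scaled, except the limit of 1 CPM, which used unscaled counts. A call needed a 1.5-fold change and an adjusted p under 0.05, or the adjusted p alone for differences in response. The script was tested on simulated data. Alternatives were DESeq2 1.42.0, its size factors, edgeR's filterByExpr, a fit of the compared groups alone, the replicate number as a block, unadjusted p, other level limits and leaving out each library. Replicate numbers share a tag in the labels across groups, and same-numbered libraries deviated together within each line with and without cytokines (lowest correlation over genes 0.162, OE), in ZIP against Scr (0.141) and in ZIP+Cy against Scr+Cy (0.191), but not in OE against Scr (-0.129) or OE+Cy against Scr+Cy (0.000631).

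Named with values were members called with cytokines, the 8 different responses of lowest p, the 4 largest changes in each of ZIP and OE against Scr and the 5 highest means, and members below 1 CPM were named by range. Other members (among them Trim3, Trim8, Trim32, Trim45, Trim59 and Trim67) were named after their values were seen. Members, gene lists and tests were chosen with earlier results of these data known. The values of 1 pathway gene are not reported here.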

Additional observations from a re-analysis of the deposited data

Results flagged for a closer look

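Of 126 groups of 4 libraries examined over the named members, 8 held a library that stood apart from the other 3, where chance gives about 1 in 20. Trim21 read 41.9 CPM in replicate 1 of ZIP+Cy, below the next at 56.6. Trim26 read 58.5 CPM in replicate 3 of Scr+Cy (next 51.1) and 27.3 CPM in replicate 2 of ZIP (next 30.4). Trim44 read 410.0 CPM in replicate 4 of ZIP+Cy (next 441). Trim68 read 2.51 CPM in replicate 3 of Scr+Cy (next 2.19) and 3.72 CPM in replicate 1 of OE+Cy (next 3.45). Trim9 read 11.4 CPM in replicate 3 of ZIP+Cy (next 16.1). Trim34a read 0.0327 CPM in replicate 4 of OE, which is 1 read where the others had 0.

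The cytokine response differed between OE and Scr cells for 13 members (log2 response of OE minus Scr, edgeR's quasi-likelihood test). It was higher by 5.11 for Trim34a, 1.37 for Trim21, 0.96 for Trim56, 0.76 for Trim7, 0.73 for Trim14, 0.52 for Trim26, 0.52 for Trim11, 0.37 for Trim67, 0.32 for Trim3, 0.30 for Trim25 and 0.24 for Trim32. The difference was -0.63 for Trim9 and -0.40 for Trim27. The value for Trim34a rests on 4 reads over all Scr libraries and 1 read over all OE libraries, and was 3.87 without replicate 1 of Scr and 6.61 without replicate 4 of OE. The calls of Trim34a and Trim32 were lost in 13 and 16 of 29 alternatives. Trim34a also entered the summary counts through its OE+Cy libraries, so its call was favored in advance.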

How the results depend on the processing

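For the counts of called members, including members at any level gave 17 in OE+Cy against OE and 17 in OE+Cy against Scr+Cy. The added members lay below a mean of 1 CPM and had their highest group means in OE+Cy, a group of both comparisons. A limit of 5 CPM left 3 in ZIP against Scr, 5 in OE against Scr and 3 in ZIP+Cy against Scr+Cy, since fewer members were counted. The shares of all genes called at any level or at 5 CPM or more were not counted. Leaving out 1 library gave 3 to 7 calls in ZIP+Cy against Scr+Cy, with 3 without replicate 4 of Scr+Cy, and 8 to 14 different responses between OE and Scr, with 8 without replicate 3 of OE+Cy. The cause was not tested. With the replicate number as a block, 15 responses differed between OE and Scr in place of 13, and the block changed no other call among members. For each of the 70 calls of a member at 1 CPM or more, 952 of 1014 values under an alternative (libraries left out of the compared groups only) kept their direction and their call, 62 kept their direction and lost the call, and 0 reversed. The call of Trim32 in the response of OE minus Scr was lost most often, in 16 of 29 alternatives over all libraries. Among those lost was Trim36 in OE against Scr, at -0.58 by DESeq2. The element GAAANNGAAA lay in 1 member in place of 8 when only the gene's own strand was read. At this depth, members at 3 reads or fewer in a library cannot be ranked.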
